A study of Mus musculus with 34 samples.

Results

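In all, 9 genes were chosen by name for proteins that make, package or take up transmitters in neurons. The transmitters are GABA, glutamate, glycine, acetylcholine and catecholamines. Island scores of these same arrays were already known when the genes were chosen. Of these 9 genes, 5 had probes on the arrays, namely Slc32a1, Gad2, Slc17a7, Slc6a5 and Slc18a3. The other 4, Gad1, Slc17a6, Chat and Th, had no probe under their names and were not analysed here. The 5 genes held 73 probes, and 70 of them lay in 7 islands, of 13620 islands scored on every array. An island is a run of at least 3 probes with gaps of at most 500 bases, which need not match a CpG island of a genome annotation. Because the genes were selected on the same scores, their levels and differences are a description, and no test of them is offered as evidence.

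Methylated DNA was pulled down with an antibody against 5-methylcytidine (mDIP), labelled with Cy5, and hybridised with Cy3-labelled input DNA on mouse CpG island arrays. The log ratio of bound over input of each probe was expressed as a Z-score over all probes of its array. The mean Z-score of an island is its island methylation score (IMS), so 0 is the mean of an array and 1 unit is the SD of its probes. The IMS is a relative score and not a percentage of methylated CpGs.

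The 34 arrays fell into 7 groups. The study's methods give C57Bl/6 for all mouse DNA, without a strain for each ES or pancreatic line. Whether the lines share the strain of the tissues and embryos cannot be told from this. Adult tissue comprised 16 arrays, 2 each of colon, pancreas, brain, kidney, liver, lung, muscle and spleen from mice 3 months old. There were 5 whole embryos, 1 each at 8.5, 9.5, 10.5, 11.5 and 12.5 days post coitum (dpc). Undifferentiated ES cells comprised 3 arrays, 1 each of lines EB5, J1 and TT2. Differentiated ES cells comprised 5 arrays, of embryoid bodies and retinoic acid treated cells (labelled as derived from TT2) and of endoderm (2 arrays) and mesoderm from EB5. The endoderm and mesoderm were sorted after Activin A treatment from a reporter line made in EB5. The methods name J1 for the retinoic acid treatment, whereas a figure legend of the study gives TT2 as the labels do. The 2 teratomas were grown under the skin of NOD-SCID mice and are labelled as J1, whereas the methods name other lines. Single arrays were of ex vivo β cells, sorted by insulin from islets of Pdx1-GFP mice, of the insulinoma line Min6 and of the glucagonoma line αTC. The embryo stages, the ES lines and the single arrays have no replicate of their own, and nothing in the labels says whether the arrays of a group came from separate animals or cultures, so an SD may be partly technical.

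GABA and glycine are the main inhibitory transmitters of the nervous system, glutamate is the main excitatory one, and acetylcholine serves motor neurons and several groups of neurons in the brain. Each is made or recycled by enzymes and is loaded into synaptic vesicles by a transporter, which GABA and glycine share. The enzymes and transporters together help to mark the type of neuron. Genes of this kind are active in few cells, and many of them carry CpG islands at or near their start sites. Such islands are mostly free of methylation in normal tissues whether or not the gene is active.

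The start sites of Slc32a1, Gad2 and Slc18a3 each lay inside an island on the array. The 250 bases before the RefSeq start site (GRCm38.p6) are shown for these 3 genes to let the CpG content of the stretches be compared, each on the strand of its gene, 5′ to 3′ and with every CpG in capitals. They lie at chr2:158610508-158610757 (plus strand) for Slc32a1, chr2:22622077-22622326 (plus strand) for Gad2 and chr14:32464851-32465100 (minus strand) for Slc18a3. These are coordinates of GRCm38.p6, whereas the positions of the islands below are those of the array files, which name no build.
Slc32a1: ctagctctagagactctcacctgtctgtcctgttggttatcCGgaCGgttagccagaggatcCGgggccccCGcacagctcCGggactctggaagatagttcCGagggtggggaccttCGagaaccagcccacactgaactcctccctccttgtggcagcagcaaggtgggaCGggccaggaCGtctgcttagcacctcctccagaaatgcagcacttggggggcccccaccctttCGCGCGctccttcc
Gad2: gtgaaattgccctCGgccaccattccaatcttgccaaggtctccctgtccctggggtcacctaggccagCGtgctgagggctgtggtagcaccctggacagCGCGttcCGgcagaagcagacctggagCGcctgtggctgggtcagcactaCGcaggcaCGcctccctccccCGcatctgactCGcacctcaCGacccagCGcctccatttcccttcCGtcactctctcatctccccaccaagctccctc
Slc18a3: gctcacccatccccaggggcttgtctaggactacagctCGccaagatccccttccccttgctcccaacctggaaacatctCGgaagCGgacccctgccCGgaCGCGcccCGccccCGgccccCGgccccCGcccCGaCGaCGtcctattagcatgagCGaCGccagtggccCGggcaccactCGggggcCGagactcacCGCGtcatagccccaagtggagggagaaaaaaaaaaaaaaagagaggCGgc
Slc32a1 had 12 CpGs in this stretch, Gad2 had 13 and Slc18a3 had 21. The median of 32851 RefSeq promoters was 6. At least as many CpGs as in Slc32a1, Gad2 and Slc18a3 were found in 33.5%, 31.5% and 16.3% of these promoters. The GC content of the 3 stretches was 62.4% to 66.0%.

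Before the values, the arrays themselves were compared over all 13620 islands. Only 3 of the 16 adult arrays were most alike to the other array of their tissue, with r from 0.812 to 0.959 within tissues and from 0.804 to 0.964 between them. The array labelled J1 stood apart from the other undifferentiated lines, with r = 0.793 to EB5 and 0.799 to TT2 against a median of 0.886 to the adult arrays. Its deposited processed values also correlated with its scanner values at 0.113, compared to 0.894 to 0.991 for the other arrays. The values of the J1 array are therefore given by themselves. It stayed in the shared fit of ES cells, embryos and adult tissue, where it adds to the spread behind the SEs. Without it and with no technical block, the counts of transmitter islands called in the comparisons of differentiated cells, embryos and adult tissue were the same. The median input signal of an array was 3.07 to 7.34 times its background. Arrays carried either of a pair of probe grids, and 69 of the 70 probes were on both.

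Slc32a1, the vesicular transporter that loads GABA and glycine into synaptic vesicles, had 24 probes in 3 islands on chromosome 2. The gene-body island (158305172 to 158306432, 13 probes) lay 2553 to 3769 bases beyond the start site. Its IMS was 2.44 in embryoid bodies, 2.66 in retinoic acid treated cells, 1.42 and 1.52 in the endoderm arrays and 1.26 in mesoderm. The adult arrays ranged from -0.78 (spleen 1) to -0.17 (colon 1) with a median of -0.54, and the embryos at 8.5 to 12.5 dpc gave -0.29, -0.73, -0.56, -0.62 and -0.48 in order of age. All 5 differentiated arrays lay above all adult and all embryo arrays. Its difference from adult tissue, 2.35 ± 0.24 (SE), was the 5th largest of 13627 islands. The SEs of these group differences take each array as a replicate, so they may understate the spread between lines or tissues. Cells derived from TT2 gave 2.55 ± 0.16 (SD, n = 2) and cells derived from EB5 1.40 ± 0.13 (SD, n = 3), and these values did not overlap. The parent lines stood in the same order, at 2.27 in TT2 and 1.07 in EB5. J1 stood at -0.46, within the adult range.

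**Figure D1:**
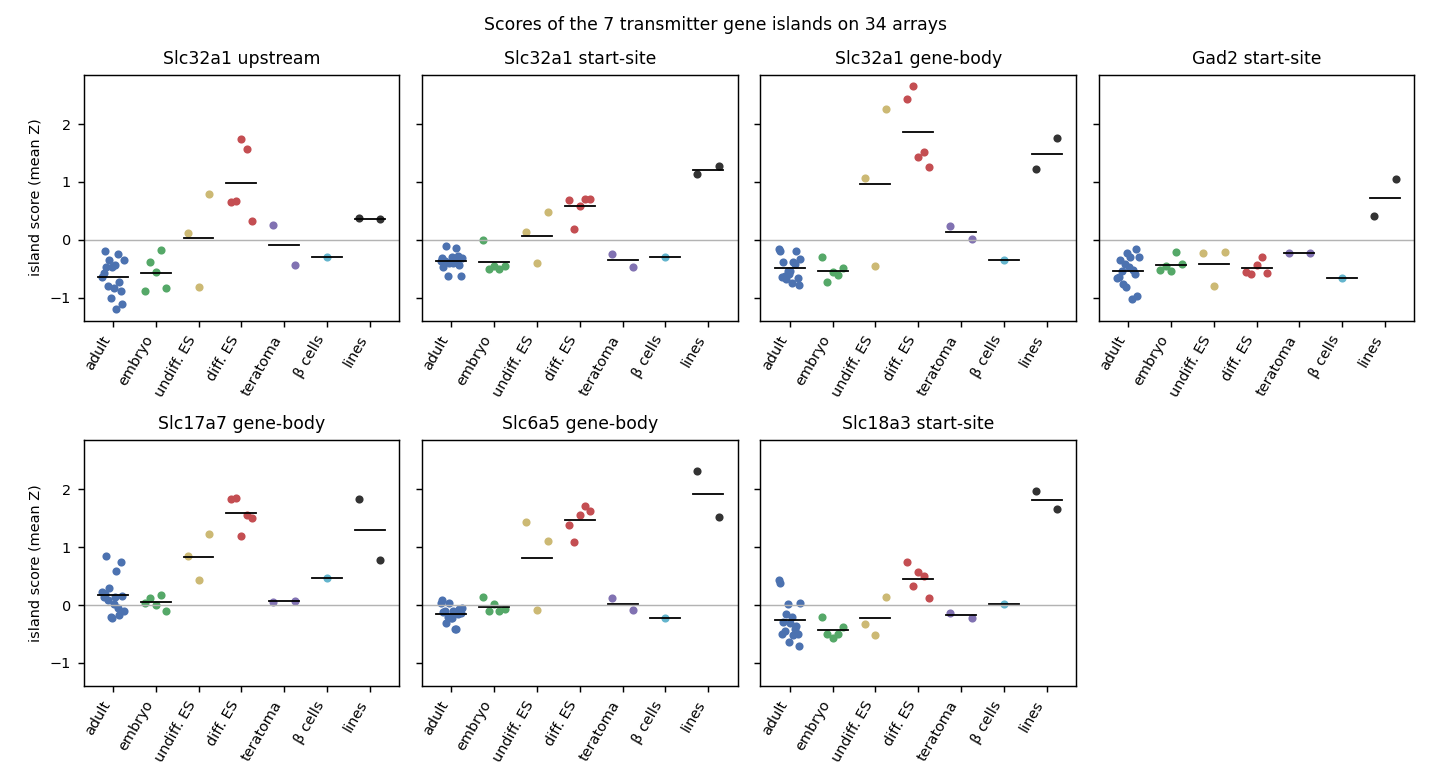
Island methylation score (mean Z-score, y axis) of the 7 islands on the 34 arrays, 1 panel per island. Points are single arrays, bars are means of the groups on the x axis, and the grey line marks 0. Differentiated ES arrays sit above adult tissue in all 3 Slc32a1 islands, in Slc17a7 and in Slc6a5, overlap it in Slc18a3 and lie within it in Gad2.

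The start-site island of Slc32a1 (158302124 to 158303099, 8 probes from -495 to 436 bases from the start) holds the promoter printed above. Its IMS was 0.69 in embryoid bodies, 0.19 in retinoic acid treated cells, 0.59 and 0.71 in endoderm and 0.70 in mesoderm. The adult arrays lay between -0.63 and -0.11 with a median of -0.37. Among the embryos the one at 8.5 dpc stood at -0.0015, and the other 4 lay between -0.51 and -0.45. The differentiated arrays again lay above every adult and embryo array, with a difference from adult tissue of 0.95 ± 0.11. The upstream island (158301115 to 158301578) has 3 probes, the fewest that make an island, and only 1 of them was well above background on all arrays. It gave 0.65 in embryoid bodies, 0.67 after retinoic acid, 1.74 and 1.56 in endoderm and 0.32 in mesoderm, against -1.21 to -0.20 in adult tissue (median -0.61). The embryos lay between -0.88 and -0.18. The difference from adult tissue was 1.63 ± 0.21.

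Along Slc32a1 the value for differentiated ES cells minus adult tissue was above 0 for all 24 probes. It ranged from 0.54 to 3.19 over the 13 gene-body probes, and at 12 of these every differentiated array was above every adult array. Over the 8 start-site probes it ranged from 0.06, for the probe 27 bases after the start, to 2.03 for the probe at 436 bases. The 3 upstream probes differed by 1.27 to 2.18. In TT2 the gene-body probes were above the adult mean by 1.76 to 3.85, and in EB5 by 0.81 to 2.34. The difference was therefore carried by many probes in the gene body and was smallest just behind the start.

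**Figure D2:**
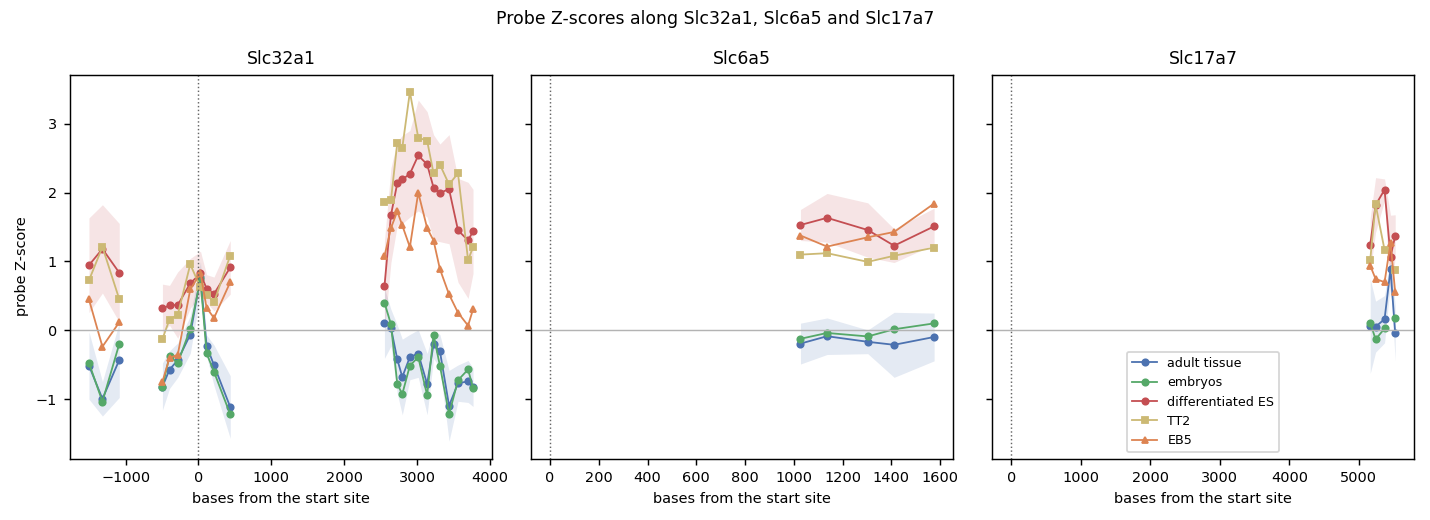
Mean probe Z-score (y axis) against distance from the start site in bases (x axis) along Slc32a1, Slc6a5 and Slc17a7. Points are probes, lines join the probes of an island, bands are the SD over arrays for adult tissue and differentiated ES cells, and TT2 and EB5 are single arrays. Differentiated ES cells lie above adult tissue at every island probe of the 3 genes, by up to 3.19 in the Slc32a1 gene body.

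Gad2, which encodes one of the enzymes that make GABA from glutamate, had 14 probes in 1 island over its start (chromosome 2, 22473743 to 22475588). The differentiated arrays gave -0.56 (embryoid bodies), -0.59 (retinoic acid), -0.43 and -0.30 (endoderm) and -0.58 (mesoderm). All 5 lay inside the adult range of -1.03 to -0.16, whose median was -0.54. The embryos lay between -0.54 and -0.22, and EB5 and TT2 each stood at -0.22. Differentiated ES cells minus adult tissue was 0.058 ± 0.12, with an SE larger than the value. Single probes differed by -0.31 to 0.61, 8 of 14 upwards, and at 0 of them did the groups separate. Gad2 was thus the island of the 7 in which differentiated ES cells could not be told from adult tissue. The 250 bases before its start held 13 CpGs, and those of Slc32a1 held 12. Whether CpG counts go with the scores was not tested.

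Slc17a7, a vesicular glutamate transporter, had 5 probes in a gene-body island (chromosome 7, 45042740 to 45043143) that lay 5163 to 5522 bases beyond the start. Its IMS was 1.83 in embryoid bodies, 1.85 after retinoic acid, 1.20 and 1.55 in endoderm and 1.51 in mesoderm. Adult tissue lay between -0.22 and 0.86 with a median of 0.14, and the highest adult array was pancreas 2. The embryos lay between -0.11 and 0.18. All differentiated arrays were above all of these, with a difference from adult tissue of 1.42 ± 0.15. Among the 5 probes, 1 was on the larger grid alone, and on the 4 shared probes the difference was 1.56 ± 0.16. The 3 Slc17a7 probes outside islands were too few to be scored. A pair at -7362 and -7130 bases from the start gave -0.11 ± 0.17 (SD, n = 5) in differentiated ES cells and 0.003 ± 0.31 (SD, n = 16) in adult tissue. The single probe at 6525 bases gave 0.74 ± 0.63 and -0.023 ± 0.23.

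Slc6a5, the glycine transporter of glycinergic nerve endings, had 5 probes in a gene-body island (chromosome 7, 49779794 to 49780386) 1027 to 1575 bases beyond the start. Its IMS was 1.38 in embryoid bodies, 1.09 after retinoic acid, 1.56 and 1.71 in endoderm and 1.62 in mesoderm. The adult arrays lay between -0.42 and 0.085 (median -0.14), and the embryos between -0.11 and 0.14. No differentiated array overlapped either group, and the difference from adult tissue was 1.62 ± 0.14. It was alike along the island, with 5 probes that differed by 1.44 to 1.72 and that each separated all differentiated from all adult arrays.

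Slc18a3, which loads acetylcholine into vesicles, lies within the first intron of Chat, the gene of the enzyme that makes it. Its island (chromosome 14, 31291841 to 31294523) had 22 probes from -635 to 1996 bases from the start, and its probes also carry a Chat accession in the files. Its IMS was 0.75 in embryoid bodies, 0.32 after retinoic acid, 0.58 and 0.49 in endoderm and 0.12 in mesoderm. The adult arrays ranged from -0.70 to 0.43 with a median of -0.33, and the embryos from -0.58 to -0.21. The difference from adult tissue was 0.71 ± 0.15, but here the groups overlapped, because the colon arrays stood at 0.43 and 0.38. Without colon, the highest of the other 14 adult arrays was 0.042, below all differentiated arrays. Both colon arrays were scanned on the same day, apart from all other arrays.

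The difference in Slc18a3 was not even along the island. Over the 9 probes up to 492 bases after the start, differentiated ES cells differed from adult tissue by -0.39 to 0.48. Over the 13 probes from 561 to 1996 bases the difference was 0.63 to 1.82 and was above 0 at each. Colon differed from the other adult tissues by 0.48 to 1.51 over the same 13 probes and by -0.21 to 1.00 over the first 9. TT2 was above the adult mean at all 13 probes, by 0.09 to 1.45, whereas EB5 differed from it by -1.34 to 0.69. The division between 492 and 561 bases was chosen after the values were seen.

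**Figure D3:**
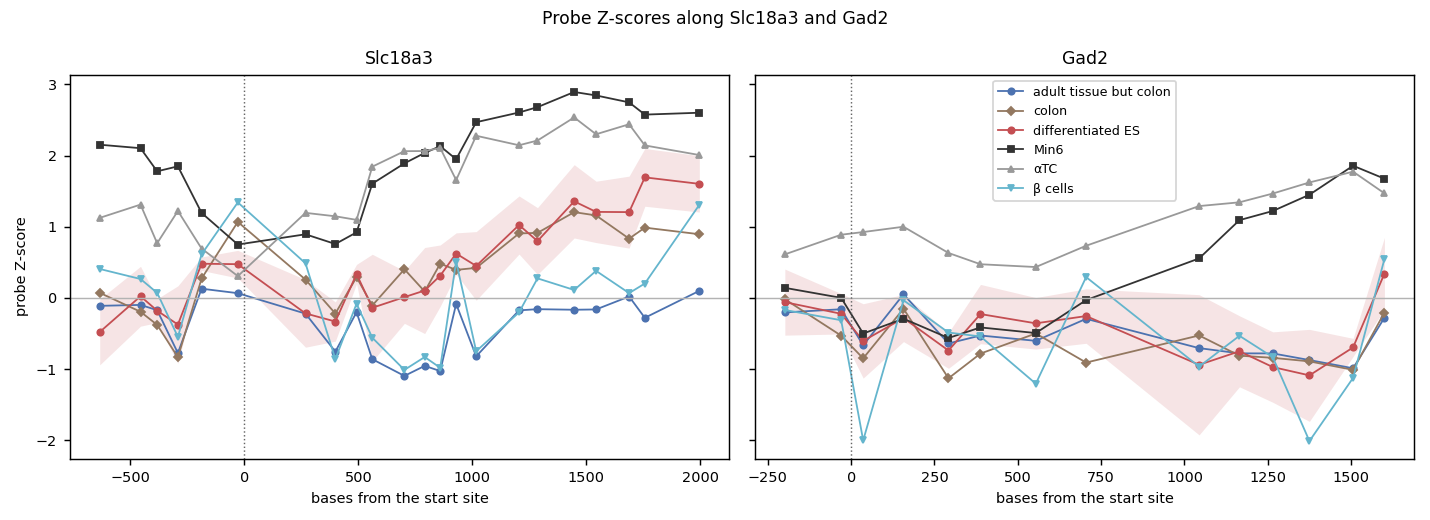
Mean probe Z-score (y axis) against distance from the start site in bases (x axis) along Slc18a3 and Gad2. Points are probes. The band is the SD over the 5 differentiated ES arrays, colon is the mean of 2 arrays, and Min6, αTC and β cells are single arrays. In Slc18a3, differentiated ES cells and colon lie above the other adult tissues from 561 bases on. In Gad2, Min6 leaves the adult level only from 1044 bases on, whereas αTC lies above it throughout.

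Set against all islands, differentiated ES cells were higher than adult tissue with an adjusted p under 0.05 in limma in 6 of the 7 islands, all but Gad2. Over all 13627 islands tested 14.4% were higher, and nothing is read from the count of 6 since the genes were selected on these scores. The median difference was 1.42 over the 7 islands and -0.010 over all islands. Every differentiated array lay above every adult array in 5 of the 7 islands and in 2.51% of all islands. With the colon arrays set aside it was 6 of 7, against 2.99% of all.

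On 2 slides a differentiated and an adult array lay side by side. Endoderm 2 was above pancreas 1 by 0.99 to 2.16 in the 6 islands other than Gad2, and embryoid bodies were above brain 2 by 0.90 to 3.12. The Gad2 island differed by 0.051 and -0.13 on these slides. Leaving out 1 differentiated array at a time moved the difference from adult tissue to between 2.15 and 2.50 for the Slc32a1 gene body and to between 0.64 and 0.80 for Slc18a3.

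Embryos were compared to ask whether the scores of differentiated ES cells are met during development in vivo. Differentiated ES cells were higher than embryos by 2.40 ± 0.30 in the Slc32a1 gene body, 1.56 ± 0.26 upstream of it and 0.96 ± 0.13 at its start site. The difference was 1.54 ± 0.18 in Slc17a7, 1.50 ± 0.17 in Slc6a5 and 0.89 ± 0.18 in Slc18a3. In Gad2 it was -0.057 ± 0.15. Again 6 of 7 islands were called higher, against 11.8% of all islands. In these 6 every differentiated array was above every embryo, as in 8.67% of all islands. This comparison shares the differentiated arrays with the one above. No slide held both groups, and the only slide or scan day that an embryo shared with another group of the fit held the embryo at 8.5 dpc and TT2. A slide block thus reads differentiated cells against embryos through TT2 and EB5, and a difference between these lines enters its values. With the slide as a block 2 of 7 islands were called, the Slc32a1 gene body and Slc17a7, against 0.70% of all islands in either direction (21.1% without a block). The differences of the 6 islands were larger under this block except in Slc6a5, and their SEs were wider. They were 3.75 ± 0.45 in the Slc32a1 gene body, 2.47 ± 0.53 upstream, 1.23 ± 0.26 at its start site, 2.65 ± 0.49 in Slc17a7, 1.34 ± 0.54 in Slc18a3 and 1.12 ± 0.29 in Slc6a5. With the scan day as a block 5 islands were called (2.69% of all), all but Gad2 and Slc18a3, with 4.64 ± 0.52 in the Slc32a1 gene body and 1.44 ± 0.38 in Slc18a3. With the software version as a block 3 were called (1.41% of all), the gene body and upstream islands of Slc32a1 and Slc17a7, and the Slc32a1 start site stood at 0.59 ± 0.26.

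Embryos minus adult tissue was -0.18 to 0.12 in the 7 islands, with SEs of 0.11 to 0.24. These values moved under a technical block. With the slide as a block, embryos were tied to adult tissue only through the slide of TT2 and the embryo at 8.5 dpc and that of EB5 and pancreas 2. The values under this block therefore rest on these arrays and take in the difference between TT2 and EB5. With the scan day as a block J1 entered too, and without it the Slc32a1 gene body differed by -1.11 ± 0.41. With the slide, scan day or software version as a block the Slc32a1 gene body differed by -1.11 ± 0.40, -1.99 ± 0.46 and -1.22 ± 0.46, the upstream island by -1.09 ± 0.47, -1.38 ± 0.36 and -0.68 ± 0.50, Slc17a7 by -1.20 ± 0.44, -0.97 ± 0.38 and -0.53 ± 0.37 and Slc6a5 by 0.59 ± 0.26, -0.32 ± 0.40 and 0.34 ± 0.37. None of the 7 islands was called under any of these blocks. Without a block none was called by limma, and 0 reached an unadjusted p under 0.05 in limma or in the methods' t-test (two-sided, equal variance), whereas 8.64% of all islands were called in either direction. All 3 Slc32a1 islands and Gad2 were below 0 on every adult array, as were 29.8% of all islands. These and Slc18a3 were below 0 on every embryo, as were 47.3% of all islands.

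**Figure D4:**
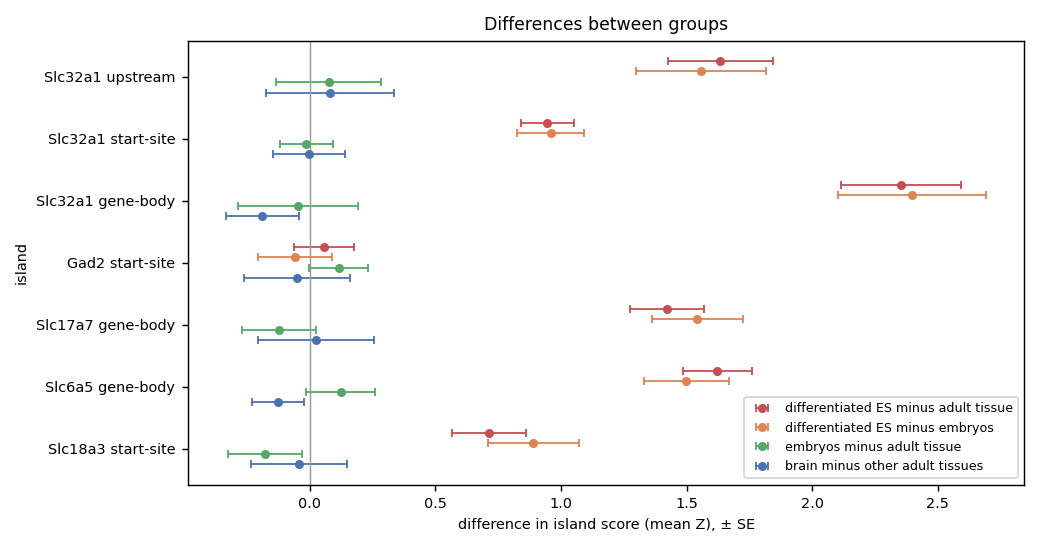
Difference in island score (mean Z-score, x axis) for the 7 islands (y axis) in 4 comparisons. Points are differences and bars are SEs from the limma fit. In 6 islands both comparisons of differentiated ES cells lie to the right of 0, from 0.71 to 2.40, whereas embryos against adult tissue and brain against other adult tissues lie near 0 in these fits without a block.

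Brain is the tissue in which these genes are best known to be active. Brain 1 and brain 2 gave -0.63 and -0.69 in the Slc32a1 gene body, -0.76 and -0.42 in Gad2 and 0.084 and 0.30 in Slc17a7. They gave -0.32 and -0.21 in Slc6a5 and -0.44 and -0.15 in Slc18a3. Brain minus the mean of the other tissues was -0.19 ± 0.14 in the Slc32a1 gene body, -0.050 ± 0.21 in Gad2, 0.026 ± 0.23 in Slc17a7, -0.13 ± 0.10 in Slc6a5 and -0.043 ± 0.19 in Slc18a3. At the upstream and start-site islands of Slc32a1 it was 0.080 ± 0.25 and -0.0024 ± 0.14. None of the 7 islands was called, and 0 reached an unadjusted p under 0.05 in limma or in the methods' t-test. The share of all 13675 islands called was 0.0%, and 549 reached an unadjusted p under 0.05. The score is an average over all cells of the tissue, and a difference limited to the neurons of 1 transmitter cannot be told apart from none.

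Among the adult tissues colon stood out in Slc18a3, with a mean of 0.41 against -0.46 to -0.26 for the other 7. Colon and its scan day, which held no other array, cannot be told apart. Both colon arrays were also the highest adult arrays in the Slc32a1 gene body, at -0.17 and -0.19, but muscle 1 followed at -0.20. Both colon arrays were above all other adult arrays in 2 of the 7 islands, against 4.34% of all islands. In Slc17a7 the order ran from pancreas (0.52) to kidney (-0.21), but the pancreas arrays stood apart at 0.19 and 0.86. Muscle differed as widely, at -0.18 and 0.75, so most neighbours in this order do not differ beyond their spread. In Slc6a5 it ran from colon (0.058) to lung (-0.41), in Gad2 from muscle (-0.37) to lung (-0.78).

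**Figure D5:**
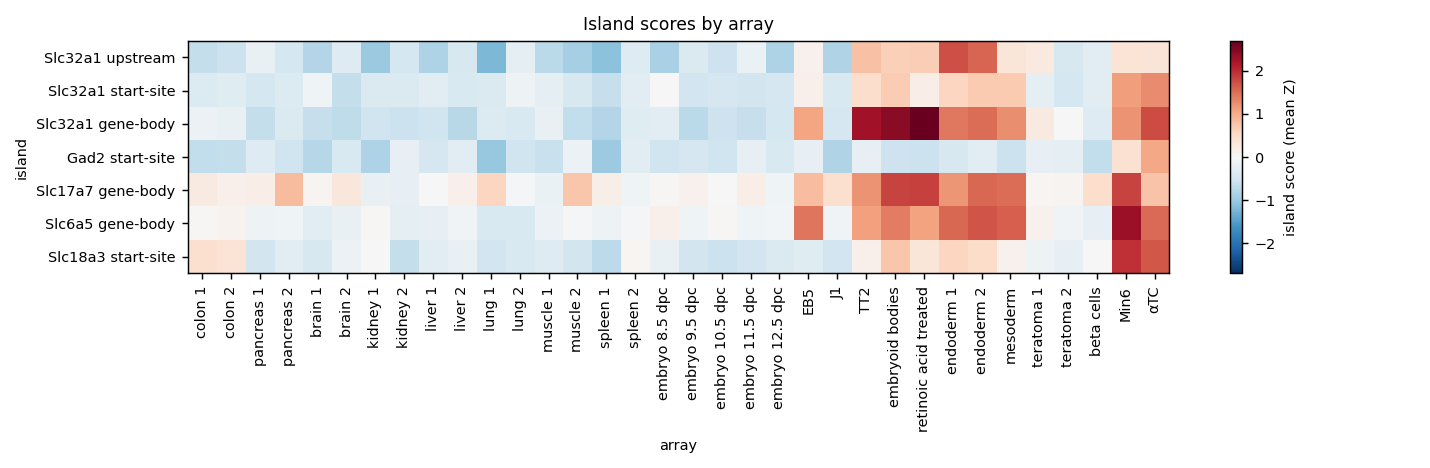
Island score (mean Z-score, colour) of the 7 islands (rows) on each of the 34 arrays (columns). Red is above and blue below the mean of an array. Apart from Gad2 the islands are above 0 on every differentiated ES array, J1 lies within the adult range in all 7, and Min6 is above 0 in all 7.

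In undifferentiated ES cells the lines were not alike. TT2 gave 2.27 in the Slc32a1 gene body, 0.80 upstream, 0.48 at the start site, 1.22 in Slc17a7, 1.10 in Slc6a5 and 0.14 in Slc18a3. It was above every adult array in 5 of the 7 islands, as it was in 17.8% of all islands. EB5 gave 1.07, 0.11 and 0.14 in the same Slc32a1 islands, 0.84 in Slc17a7, 1.44 in Slc6a5 and -0.33 in Slc18a3. It was above every adult array in 4 islands, against 15.3% of all. J1 was above every adult array in 0 of 7 islands, against 5.86% of all. The study took a score of 0.75 as high methylation, with scores adjusted for probe melting temperature (Tm). Without that step and with other islands, the value is not the same cut here. It was passed in 4 islands by TT2 (10.7% of all islands) and in 3 by EB5 (10.5%). One of those of EB5, Slc17a7, passed it only with the probe of the larger grid. On the 4 shared probes EB5 stood at 0.73 and TT2 at 1.22. On slides shared with an embryo or tissue, TT2 was above the embryo at 8.5 dpc by 2.56 and EB5 above pancreas 2 by 1.45 in the Slc32a1 gene body. Over the 7 islands TT2 differed from this embryo by 0.31 to 2.56, whereas EB5 differed from pancreas 2 by -0.014 in Slc17a7 and -0.034 in Slc18a3 and by 0.32 to 1.55 in the other 5.

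Differentiated cells were then set against their own parent line, with 1 array of each. In Slc17a7 all 5 were above the parent, by 0.36 to 0.71, and in Slc18a3 by 0.18 to 0.91. In the Slc32a1 gene body they were above it by 0.17 to 0.45. Gad2 went the other way, with all 5 below the parent by differences of -0.36 to -0.072. In Slc6a5 the differences were small, from -0.0085 to 0.28. At the Slc32a1 start site they were 0.21 to 0.57 apart from retinoic acid treated cells at -0.29. In the upstream island endoderm 1, endoderm 2 and mesoderm were above EB5 by 1.63, 1.45 and 0.21, whereas embryoid bodies and retinoic acid treated cells differed from TT2 by -0.15 and -0.13. The parent arrays were hybridised once each, so these differences have no error. Those of Slc17a7 also mix probe grids, since EB5 and 2 of the 5 differentiated arrays carried the larger one. On the 4 shared Slc17a7 probes EB5 stood at 0.73, TT2 at 1.22 and the differentiated arrays at 1.34 to 1.85.

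The teratomas lay near the adult scores. They gave 0.24 and 0.014 in the Slc32a1 gene body, -0.24 and -0.48 at its start site and 0.26 and -0.43 upstream. They gave 0.058 and 0.074 in Slc17a7, 0.13 and -0.088 in Slc6a5, -0.14 and -0.22 in Slc18a3 and -0.23 in Gad2 on both arrays. Every differentiated ES array was above both teratomas in 6 of the 7 islands, as in 12.1% of all islands, and below both in Gad2, as in 10.9% of all islands. Teratoma 1 was above every adult array in 3 islands (the Slc32a1 gene body and upstream islands and Slc6a5) and teratoma 2 in 1, the Slc32a1 gene body. The shares of all islands were 7.93% and 4.75%. By the labels the teratomas come from J1 and the differentiated arrays from TT2 and EB5. Line and setting therefore cannot be told apart in the comparison of teratomas with differentiated cells. The J1 array gave -0.46 in the Slc32a1 gene body, -0.41 at its start site and -0.81 upstream. It gave 0.44 in Slc17a7, -0.084 in Slc6a5, -0.52 in Slc18a3 and -0.81 in Gad2.

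The pancreatic lines Min6 and αTC were high in islands in which β cells were not. In β cells the IMS was -0.35 in the Slc32a1 gene body, -0.30 at its start site, -0.31 upstream, -0.67 in Gad2, 0.47 in Slc17a7, -0.23 in Slc6a5 and 0.0094 in Slc18a3. β cells were above every adult array in 0 of 7 islands, against 11.6% of all islands. Min6 gave 1.22, 1.14 and 0.38 in these Slc32a1 islands, 0.41 in Gad2, 1.83 in Slc17a7, 2.31 in Slc6a5 and 1.97 in Slc18a3. It was above every adult array in 7 of 7 islands (16.2% of all) and over 0.75 in 5 (19.5%). αTC gave 1.76, 1.28 and 0.36, then 1.05, 0.78, 1.53 and 1.67 in the same order. It was above every adult array in 6 islands (19.9%), all but Slc17a7, and over 0.75 in 6 (23.1%), all but the upstream Slc32a1 island. Both lines were above every adult array in 6 of 7 islands, against 12.3% of all. Both lines lay on 1 slide, and no ex vivo α cells were on the arrays.

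Gad2 was thus above adult tissue in the lines and not in differentiated ES cells. Along its island the lines differed from each other. Over the 8 probes up to 705 bases after the start Min6 differed from adult tissue by -0.32 to 0.34, and αTC by 0.79 to 1.61. Over the 6 probes from 1044 to 1600 bases Min6 was above adult tissue by 1.24 to 2.85 and αTC by 1.74 to 2.77. In Slc18a3, Min6 was above adult tissue at all 22 probes, by 0.56 to 2.63 up to 492 bases and by 1.97 to 3.14 beyond, and αTC was so too, by 0.11 to 2.01 and 1.68 to 2.97. The division of the Gad2 island between 705 and 1044 bases was chosen after the values were seen.

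Across the 34 arrays the islands moved together to a varied degree, described here by Pearson's r over arrays that share platform and dyes and fall into groups. The highest r among the 7 islands was 0.92, between the Slc32a1 start site and Slc6a5, and the lowest was 0.23, between Gad2 and Slc17a7. Of 10425 islands of other genes, 1 island per gene, those most like the Slc32a1 gene body were Duoxa2 (r = 0.93), Fibcd1 (0.93), Chx10 (0.92), Mmp9 (0.92) and Cilp2 (0.91). The most alike to Slc6a5 was Barhl1 (0.92), to Slc17a7 again Mmp9 (0.88), to Gad2 Wwtr1 (0.88) and to Slc18a3 Pcdh8 (0.97).

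A list of 32 other transmitter genes was examined in the same way. They serve the making, packaging, uptake or breakdown of the transmitters above or of the monoamines serotonin and histamine. Of these 32 genes 19 had an island, 22 islands in all. Differentiated ES cells were higher than adult tissue in 9 of the 22 islands and lower in 0 (against 14.4% of all islands higher), with a median difference of 0.36. By transmitter this was 1 of 4 islands of GABA genes, 2 of 8 of glutamate genes, 1 of 2 of Slc6a9, 1 of 2 of acetylcholine genes and 4 of 6 of monoamine genes. Against embryos 8 of 22 were higher and 0 lower (11.8% of all islands were higher), with a median difference of 0.26. By limma 0 of 22 were called in embryos against adult tissue (8.64% of all islands) and 0 in brain against other tissues, where 0.0% of all islands were called. The 4 islands with the largest differences called are named. Slc6a11, a GABA transporter that takes GABA up from the synapse, was higher by 0.91 ± 0.18, with 1.18 ± 0.33 (SD, n = 5) in differentiated ES cells and 0.26 ± 0.38 (SD, n = 16) in adult tissue. Slc18a2, the vesicular monoamine transporter of the brain, was higher by 0.88 ± 0.12, at 0.47 ± 0.25 against -0.41 ± 0.23. Slc1a1, a glutamate transporter of the cell surface, was higher by 0.84 ± 0.12, at 0.13 ± 0.35 against -0.71 ± 0.22. For Slc6a9, the other glycine transporter, the 4-probe island was higher by 0.73 ± 0.20, and its 14-probe island differed by -0.12 ± 0.08. The adult and differentiated arrays overlapped in Slc6a11, Slc18a2 and this Slc6a9 island. In Slc1a1 the lowest differentiated array, at -0.43, lay just above the highest adult array, at -0.46.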

How the data were processed

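The authors measured bound against input DNA on Agilent arrays and extracted spot intensities with Feature Extraction (versions 9.5.3.1, 10.5.1.1, 10.7.3.1 and 10.9.1.1, per the file headers). Their scanner files hold deposited log10 ratios (Cy5 over Cy3, background-subtracted, linear dye normalization). Their deposited processed table holds a score per probe (Z-score) that the authors computed according to probe Tm. It was an alternative here.

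Z-scores were recomputed per array from the log10 ratios, without control and flagged spots and without the Tm step, and averaged over islands. The files name no genome build. All islands scored on every array of a fit were tested with limma 3.58.1 (lmFit and eBayes, R 4.3.3, Benjamini-Hochberg adjustment). Differentiated and undifferentiated ES cells, embryos and adult tissue shared 1 fit, and brain was fitted within the 16 adult arrays. In the shared fit each array counted as a replicate, with no term for tissue or line. The step was checked on simulated data. Other steps used Python 3.11.15, numpy 2.4.6 and pandas 2.3.3.

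The genes, the list of 32 other transmitter genes and the tests were chosen with earlier results of these data known. Every island of the chosen genes is described. Of the other list, among the islands called for differentiated ES cells minus adult tissue, the 4 that differed most are named. For likeness, the 5 genes most alike to the Slc32a1 gene body and the 1 most alike to each other gene's largest island are given. Alternatives covered the normalization, background correction (normexp with offset 50, on median signals), dim probes, fewest probes (5), probe grid, arrays left out, batch and the methods' t-test. The number of arrays limits the precision.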

Additional observations from a re-analysis of the deposited data

Results flagged for a closer look

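Among 14 groups of 5 arrays tested, 2 held an array far from the others. The rule flags about 1 in 20 groups of true replicates by chance. The groups here are embryos of different ages or cells of different lines and treatments, so this rate need not hold. At the Slc32a1 start site the embryo at 8.5 dpc (-0.0015) stood above the other embryos (-0.51 to -0.45), with a gap to the nearest of 0.873 of the range of the group. At the same island retinoic acid treated cells (0.19) stood below the other differentiated ES arrays (0.59 to 0.71), with a gap of 0.770 of the range. The embryo at 8.5 dpc also differed from the other embryos in slide, scan day and software version. Retinoic acid treated cells shared none of these with the other differentiated arrays, and neither did endoderm 1.

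In the Slc32a1 upstream island the 3 arrays derived from EB5 were all above their parent line and the 2 derived from TT2 both below theirs, and the mean differences were 1.24 apart. This difference was not tested. The island rests on 3 probes, and each parent line was hybridised once.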

How the results depend on the processing

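The count of islands called for differentiated ES cells against embryos changed with the technical batch. It was 2 of 7 with the slide as a block and 3 with the software version as a block, where the shares of all islands called in either direction were also lower (0.70% and 1.41%, from 21.1%). Apart from Slc6a5, and from Slc18a3 and the Slc32a1 start site under the software version, the differences of the 6 islands were larger under these blocks, with wider SEs. Blocks without J1, added after the data were seen, gave 2 with the slide, 3 with the scan day and 4 with the software version, and the Slc32a1 gene body differed from embryos by 3.04 to 3.76. The differences with the slide as a block could not change, since J1 was alone on its slide. The slide block tied embryos to the other groups only through the embryo at 8.5 dpc and TT2. Its values, also those for embryos against adult tissue, therefore take in the difference between TT2 and EB5. The cause of the changed counts was not tested. Leaving out 1 array at a time gave 6 of 7 in both comparisons of differentiated ES cells and 0 for embryos against adult tissue and for brain. For brain, the fit with the replicate block gave 0. Without brain 1, limma called 22 of all islands, 0 of them among the 7. Arrays of the same number deviated together in part (r from -0.25 to 0.63 over 28 pairs of tissues), and by the labels they share only a number. With the deposited processed table, with bright probes alone or with at least 5 probes, 5 of the 7 islands could be scored in the comparisons of differentiated ES cells, and 4 were called in each (19.4% to 22.9% of all islands were called in either direction). For embryos against adult tissue 0 to 7 of all islands, and 0 of the 7, were called by limma with slide, scan day or software version as a block, and the Slc32a1 gene body moved from -0.045 to between -1.99 and -1.11. For brain, slide and scan day were random blocks added after the data were seen, and the software version, which did not vary among adult arrays, was not run. The limits are few arrays per group, dim probes in 6 of the islands and scores that are relative within an array.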
